A study of Mus musculus with 8 samples.

Results

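Lipid synthesis and epidermal barrier lipid genes were compared between Nfkbiz KO and wildtype mouse keratinocytes. The genes were chosen by name, from probe sets that carried only that symbol. Genes of the ELOVL, FADS, SCD, ACSL, ABCA, CERS, DGAT, AGPAT, PLA2G, PNPLA, SMPD and FABP families were taken where values were at hand. The families are thus not covered in full. For example, ELOVL is represented by Elovl2 and Elovl3, SCD by Scd3 and ACSL by Acsl5. LIP genes were taken where a single letter follows Lip, which leaves out the measured gene Lipo2. The sterol enzyme genes Nsdhl and Tm7sf2 were added with their change already known. The genes so chosen came to 49 of the 9294 genes tested, and DGAT genes were not analysed here. Expression was measured on 8 one-colour arrays of total RNA from C57BL/6 keratinocytes, each taken 3 days after v-rasHa, a viral form of activated Hras, was introduced. The wildtype group held 4 cultures and the Nfkbiz KO group 4 cultures lacking the gene of IkBz, a nuclear cofactor of NF-kB, and the labels call them biological replicates. All cultures carried v-rasHa and were grown in regular medium without starvation. The labels give neither the extent of the deletion, nor the number of animals behind the cultures, nor whether the cells were a line.

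The water barrier of the skin is built from lipid that keratinocytes make as they differentiate. Very long fatty acids are made by elongation and joined to a sphingoid base by ceramide synthases, and in the epidermis the longest of them are linked to linoleate to give acylceramides, which are packed into lamellar granules and secreted with cholesterol and free fatty acids. Phospholipases and acid lipases release fatty acids from other lipids, and some of these serve as precursors of signalling lipids.

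Values are log2 signals per probe set as the authors deposited them, and 1 unit is a doubling of signal. No detection calls were used. Array medians lay between 4.49 and 4.57 and lower quartiles between 3.33 and 3.39, and a signal near or under these levels could not be told from background. The words rose, fell and called are kept for genes to which limma gave a Benjamini-Hochberg adjusted p under 0.05 over the 9294 genes, and differences are knockout minus wildtype. Precision is limited by the number of arrays, and the median standard error of a difference was 0.077 over the lipid genes. Keratinocyte identity was checked on markers. Krt5, the basal keratin, read 13.42 ± 0.03 in wildtype and 13.29 ± 0.06 in knockout arrays (SD, n = 4 each), and of 7 measured keratinocyte markers 1 fell, Col17a1 by 0.31. Of 6 fibroblast markers 5 fell and 1 rose, Postn, with a median difference of -0.73, and the sum of their linear signals was 760 to 825 in wildtype and 491 to 566 in knockout arrays. None of the 6 had means under the array medians in both groups, and Twist2, the brightest, read 8.51 in wildtype arrays. The part of these transcripts in the results was not tested, and in a bulk culture fewer cells of a type and less RNA per cell cannot be told apart. Of 8 adipocyte markers 1 fell, Adig by 0.35, and 7 did not pass. Of these 8, 5 had means under the array medians in both groups. The adipokine gene Adipoq read 2.56 and 2.52 in the 2 groups, below the lower quartile of every array. The brightest, Cidea, also a sebocyte marker, read 8.04 and 7.86, and Retn read 5.37 and 5.35, above the array medians. None of 5 sebocyte markers was called in limma, and 0 had an unadjusted p under 0.05. Of 3 melanocyte and 9 leukocyte markers, 1 each was called, Pmel and Tyrobp, which fell by 0.28 and 0.25. All 3 melanocyte markers and 4 of the 9 leukocyte markers were lower at an unadjusted limma p under 0.05. The melanocyte markers were bright, with a median difference of -0.20, and Dct, the brightest, read 10.58 in wildtype and 10.40 in knockout arrays. The limma call of Adig was lost without wildtype replicate 1, 3 or 4 or knockout replicate 1 or 3 (adjusted p up to 0.106), and that of Tyrobp without any single array other than wildtype replicate 4 (up to 0.0925).

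Among the 49 lipid genes there were 4 that rose, 4 that fell and 41 that did not pass. The genes that fell were Pnpla1 and Cers3, which act in acylceramide synthesis, and the neighbouring phospholipase genes Pla2g4d and Pla2g4e. The genes that rose were Nsdhl and Tm7sf2 of cholesterol synthesis, the desaturase gene Fads1 and the ceramide synthase gene Cers2. The share called was 16.3% of the lipid genes against 8.9% of all genes tested, 8.16% against 4.47% higher and 8.16% against 4.43% lower. Nsdhl and Tm7sf2, both picked as called genes, were 2 of the 4 rises, so their calls are a description. Of the 47 genes picked by family name, 6 (12.8%) were called, 4.26% of the 47 higher and 8.51% lower. Over all 9294 genes, 415 were called higher and 412 lower, or 482 and 314 with each array centred on its median. The median difference was -0.04 over the lipid genes and -0.01 over all genes, and the median size of a difference, regardless of sign, was 0.12 and 0.074. Wildtype and knockout values did not overlap for 11 of the lipid genes (22.4%), against 15.9% of all genes. In 5 of these the knockout was higher, and in 6 lower, against 7.91% and 7.97% of all genes. Nsdhl and Tm7sf2, picked as called genes, are counted among the 11 and among the 5. Of the lipid genes, 2 in place of 4 rose without wildtype replicate 2 or 4 or without knockout replicate 4, and 7 in place of 4 fell without knockout replicate 2. Over all genes, 288, 350 and 336 rose in the first of these fits, in that order, in place of 415. Without knockout replicate 2, 321 fell in place of 412.

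**Figure D1:**
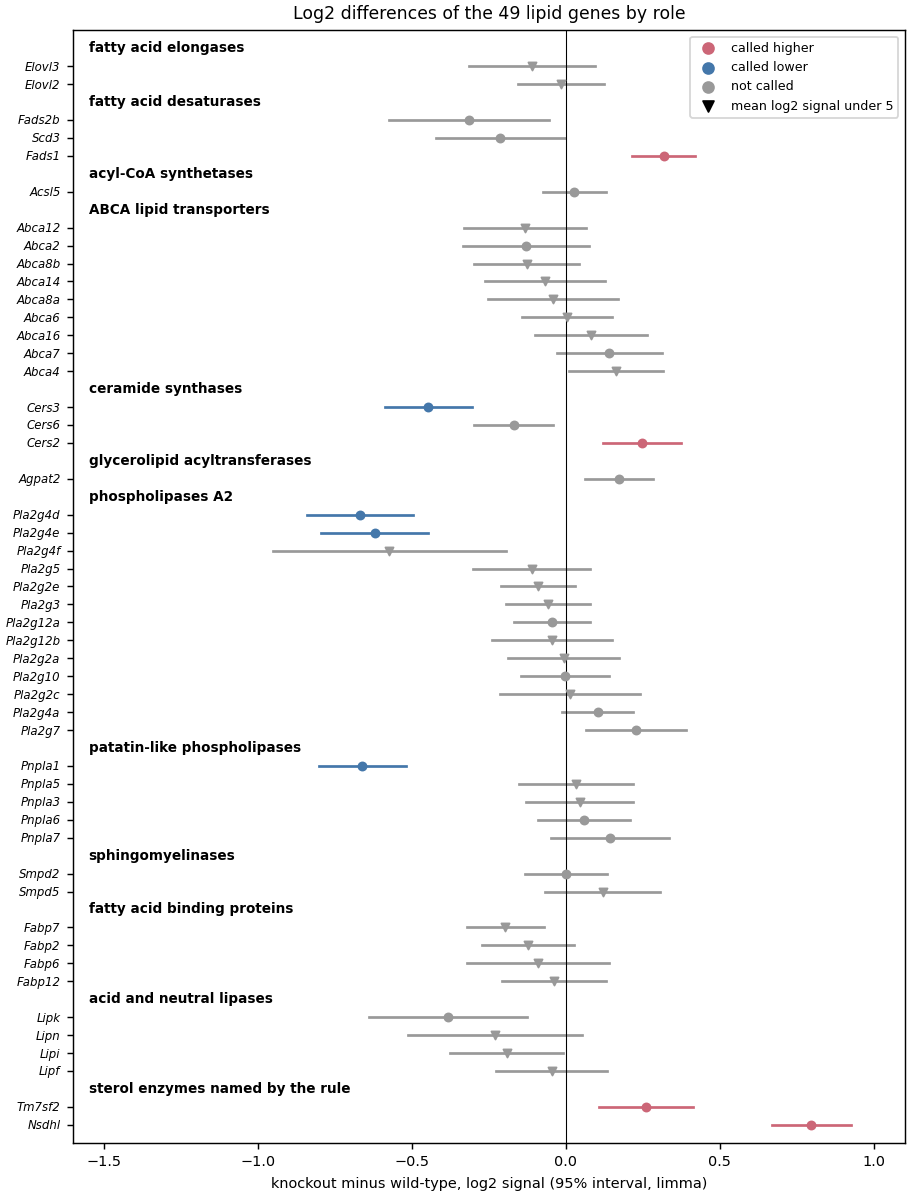
Difference in log2 signal, knockout minus wildtype, for the 49 lipid genes grouped by role, with points for the estimate and lines for its 95% interval from limma; triangles mark a mean log2 signal under 5. The 4 genes called lower lie between -0.67 and -0.45, and the 4 called higher between 0.25 and 0.80.

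Signal level separated the genes that were called from many that were not. In all, 25 lipid genes lay above the array median on each of the 8 arrays, 20 lay below it on each, and 4 were in between. All 8 called genes were among the 25, and none of the 20 was called in limma. Among those 20, 2 had an unadjusted p under 0.05, and the smallest adjusted p was 0.0563, for Fabp7. The median difference was 0.00 over the 25 and -0.079 over the 20. The split of calls by level is not particular to the lipid genes. Over all genes the share called was 8.9%, and 23.9% with only genes of a mean log2 signal of at least 5 kept. The shares of all genes called above and below the array medians were not counted. Acsl5 was the brightest of the lipid genes with a mean of 10.96, and Abca16 the dimmest with 2.32.

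**Figure D2:**
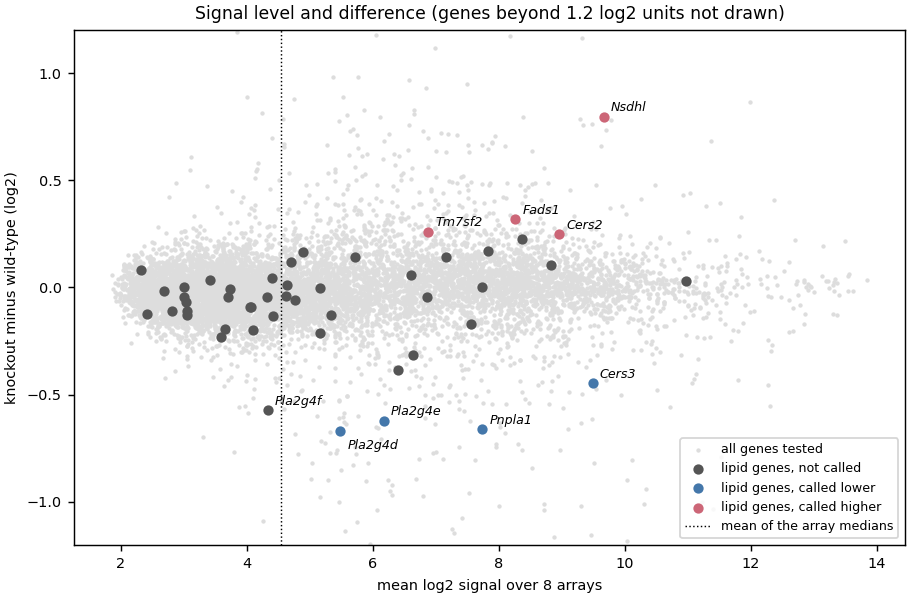
Difference in log2 signal (knockout minus wildtype) against the mean log2 signal over the 8 arrays, for all 9294 genes in grey, except those beyond the vertical range, and the 49 lipid genes in dark grey or colour. The called genes lie to the right of the dotted line, the mean of the array medians, and Pla2g4f, which was not called, lies to its left with a mean of 4.33.

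The promoters of 5 genes are printed first because their values carry the pairs and neighbours described below: the 2 sterol enzyme genes, and 3 phospholipase genes that lie side by side. Each is the 250 bases before the RefSeq start of the gene on GRCm38.p6, written 5′ to 3′ on the strand of the gene, with capitals for CCAAT or its reverse complement. The Nsdhl window is chrX:72918271-72918520 on the plus strand, that of Tm7sf2 chr19:6067851-6068100 on the minus strand. Those of Pla2g4e, Pla2g4d and Pla2g4f are chr2:120245336-120245585, chr2:120289070-120289319 and chr2:120314166-120314415, all on the minus strand.
Nsdhl: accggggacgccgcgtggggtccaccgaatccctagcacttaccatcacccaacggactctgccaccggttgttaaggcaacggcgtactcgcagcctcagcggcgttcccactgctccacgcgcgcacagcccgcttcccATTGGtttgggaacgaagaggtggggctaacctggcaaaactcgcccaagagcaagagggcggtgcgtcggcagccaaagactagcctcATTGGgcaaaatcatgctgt
Tm7sf2: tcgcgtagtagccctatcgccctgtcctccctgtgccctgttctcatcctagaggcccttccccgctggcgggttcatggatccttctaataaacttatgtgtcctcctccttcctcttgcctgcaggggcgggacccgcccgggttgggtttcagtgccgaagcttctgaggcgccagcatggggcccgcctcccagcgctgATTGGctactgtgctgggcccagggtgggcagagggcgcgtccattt
Pla2g4e: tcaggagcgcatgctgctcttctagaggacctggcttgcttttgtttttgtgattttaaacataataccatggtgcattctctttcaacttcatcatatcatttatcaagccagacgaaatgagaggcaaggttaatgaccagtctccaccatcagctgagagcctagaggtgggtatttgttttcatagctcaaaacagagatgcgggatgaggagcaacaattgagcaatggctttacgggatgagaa
Pla2g4d: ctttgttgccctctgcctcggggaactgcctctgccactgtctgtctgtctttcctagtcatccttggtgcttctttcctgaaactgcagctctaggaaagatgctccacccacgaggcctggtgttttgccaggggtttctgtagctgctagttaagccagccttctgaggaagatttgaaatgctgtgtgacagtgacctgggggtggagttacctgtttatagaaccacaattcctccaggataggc
Pla2g4f: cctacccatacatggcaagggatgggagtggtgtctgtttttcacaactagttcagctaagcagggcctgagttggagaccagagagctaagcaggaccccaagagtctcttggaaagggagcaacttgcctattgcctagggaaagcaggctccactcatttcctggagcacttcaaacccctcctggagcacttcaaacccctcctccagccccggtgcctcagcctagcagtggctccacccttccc
The CCAAT letters, a binding sequence of NF-Y, occurred in both sterol enzyme windows, at 2 places in Nsdhl and 1 in Tm7sf2, and in none of the 3 phospholipase windows. Over all 32851 windows of the RefSeq table, 33.8% hold them, and 20 of the 46 windows of the lipid genes (43.5%) do. There were windows for 40 of the 49 genes, and for 7 of the 8 called ones. Of these 7 called genes, 4 had the CCAAT letters: Nsdhl, Tm7sf2 and Cers2, which rose, and Pnpla1, which fell. On both strands, the sterol regulatory element letters TCACNCCAC were in 1.05% of all windows, the AP-1 letters TGANTCA in 6.75% and the kappa-B consensus in 3.90%. None of these 3 motifs was in a window of a called gene, which says only that these letters are not in these 250 bases. Among the lipid genes the sterol regulatory letters were in Fabp6 and Pla2g12a, the AP-1 letters in Lipn and Pla2g2e, and the kappa-B consensus in Pla2g12b. In the printed windows no CCAAT match overlaps a match of another motif, and all matches are descriptions of sequence only.

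Sterol synthesis was represented by the 2 enzyme genes of the rule, both higher in the knockout. Nsdhl encodes a dehydrogenase that removes methyl groups at carbon 4 of the sterol ring. It read 9.25, 9.28, 9.37 and 9.14 in wildtype replicates 1 to 4 and 10.06, 10.06, 10.01 and 10.10 in knockout replicates 1 to 4. Every knockout array lay above every wildtype array, and the difference was 0.80 ± 0.06 (SE), a 1.74-fold higher signal (limma adjusted p = 6.95e-06). Tm7sf2 encodes a sterol C14 reductase. Its log2 signals were 6.76, 6.66, 6.85 and 6.69 in wildtype and 6.99, 6.86, 7.02 and 7.14 in knockout arrays. The groups were separated by the narrow gap between wildtype replicate 3 and knockout replicate 2, with a difference of 0.26 ± 0.07 (SE, limma adjusted p = 0.0411). The limma call of Tm7sf2 was lost without wildtype replicate 1, 2 or 4 or knockout replicate 1, 3 or 4, with an adjusted p of up to 0.112, and also after quantile normalization.

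No other measured sterol gene was called. Of 26 listed genes of sterol synthesis and uptake, 6 were measured, and none passed in limma in either direction (1 at an unadjusted p under 0.05), with differences of -0.14 to 0.11 and a median of -0.04. Sqle, the squalene epoxidase gene, and Dhcr7, which acts at the last step of cholesterol synthesis, were named after their values were seen. Sqle read 10.14 and 10.00 in the 2 groups, and Dhcr7 9.39 and 9.50 (limma adjusted p = 0.189 and 0.599). Sqle was the gene with an unadjusted limma p under 0.05. All its knockout arrays were lower than all its wildtype arrays, a direction opposite to that of Nsdhl and Tm7sf2. Of 8 measured genes of fatty acid synthesis and its control, out of 20 listed, 1 fell and 7 did not pass, with a median of -0.02. The gene that fell was Mid1ip1, which encodes an activator of acetyl-CoA carboxylase, from 10.70 ± 0.06 to 10.40 ± 0.06 (SD, n = 4 each). Fasn and Srebf1, the genes of fatty acid synthase and of its regulator SREBP-1, chosen after their values were seen, had differences of 0.02 and -0.08 (limma adjusted p = 0.922 and 0.512).

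Ceramide synthases, which attach a fatty acid to the sphingoid base, moved in opposite directions. Cers3 makes the ceramides with the longest acyl chains, which the epidermal barrier requires. It read 9.65, 9.72, 9.83 and 9.64 in wildtype and 9.14, 9.36, 9.25 and 9.29 in knockout replicates 1 to 4. All knockout arrays were lower than all wildtype arrays, with a difference of -0.45 ± 0.06 (SE), a 1.36-fold lower signal (limma adjusted p = 0.00101). Cers2, the broadly expressed synthase of very long-chain ceramides, read 8.90, 8.73, 8.89 and 8.83 in wildtype and 9.06, 9.11, 9.01 and 9.15 in knockout arrays. Here every knockout array was higher, by 0.25 ± 0.06 on average (SE, limma adjusted p = 0.0212). The limma call of Cers2 was lost without wildtype replicate 2 or 4 or knockout replicate 2 or 4, with an adjusted p of up to 0.0647, while that of Cers3 held without any single array. Cers6, the synthase of shorter-chain ceramides, had a difference of -0.17, with a 95% interval of -0.30 to -0.04 and overlapping groups (limma adjusted p = 0.112).

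Pnpla1 fell, and the other patatin-like phospholipase genes did not pass. Pnpla1 encodes the transacylase that links linoleate to ceramide to form acylceramide, and its loss causes ichthyosis. Its log2 signals were 8.01, 8.08, 8.10 and 8.07 in wildtype and 7.28, 7.46, 7.33 and 7.54 in knockout arrays. The gap between the groups was wider than the range within either, and the difference was -0.66 ± 0.06 (SE), a 1.58-fold lower signal (limma adjusted p = 6.04e-05). By size of p, Pnpla1 ranked 89 and Nsdhl 43 of the 9294 genes. Pnpla3, Pnpla5, Pnpla6 and Pnpla7, genes of a lipid droplet protein, a triglyceride lipase and a pair of lysophospholipases, had differences of 0.03 to 0.14, and their smallest limma adjusted p was 0.401. Pnpla3 and Pnpla5 lay below the array median on each array.

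Other genes of sphingolipid and barrier lipid processing were taken from a list of 34, of which 11 were measured: 4 fell, 2 rose and 5 did not pass, with a median difference of -0.07. Cyp4f39, which encodes the omega-hydroxylase of ultra-long fatty acids that acts before Cers3 in acylceramide synthesis, fell from 7.70 ± 0.11 to 7.32 ± 0.13 (SD, n = 4 each; limma adjusted p = 0.0112). Degs2, whose product forms the phytosphingosine type of ceramide, read 8.08, 8.47, 8.49 and 8.29 in wildtype and 7.46, 7.80, 7.83 and 7.72 in knockout arrays. Its groups did not overlap, and its difference was -0.63 ± 0.11 (SE, limma adjusted p = 0.00287). Alox12b, the 12R-lipoxygenase gene whose product oxidises the linoleate of acylceramide, fell from 5.20 to a knockout mean of 4.42, below the array medians (limma adjusted p = 0.00254). Its knockout replicates 1 to 4 read 4.27, 4.43, 4.15 and 4.84, and only replicate 4 lay above the array medians. The size of its difference, -0.78, thus rests in part on knockout signals that could not be told from background. The lipoxygenase gene Alox12e had a rise of 1.38 ± 0.14 (SE). Further genes were named after their values were seen. Aloxe3, which acts after Alox12b, had a difference of -0.29 (limma adjusted p = 0.0577), and Slc27a4, the gene of a fatty acid transport protein needed for the barrier, fell by 0.26. The limma call of Slc27a4 was kept without wildtype replicate 1 or knockout replicate 2 and was lost without any other single array, with an adjusted p of up to 0.0887. Sphk1, the sphingosine kinase gene, rose by 0.31. In the same arrays, 4 of 12 measured terminal differentiation genes fell and none rose, with a median of -0.29: Sprr2d by 2.41, the transglutaminase gene Tgm1 by 0.73, the transcription factor gene Grhl3 by 0.45 and the protease gene Klk7 by 0.30. Without knockout replicate 1, 1 of these 12 was called higher, the filaggrin gene Flg, which had a difference of 0.40 and an adjusted p of 0.034 there and 0.252 with all arrays. The part of differentiation in the lipid gene values was not tested.

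**Figure D3:**
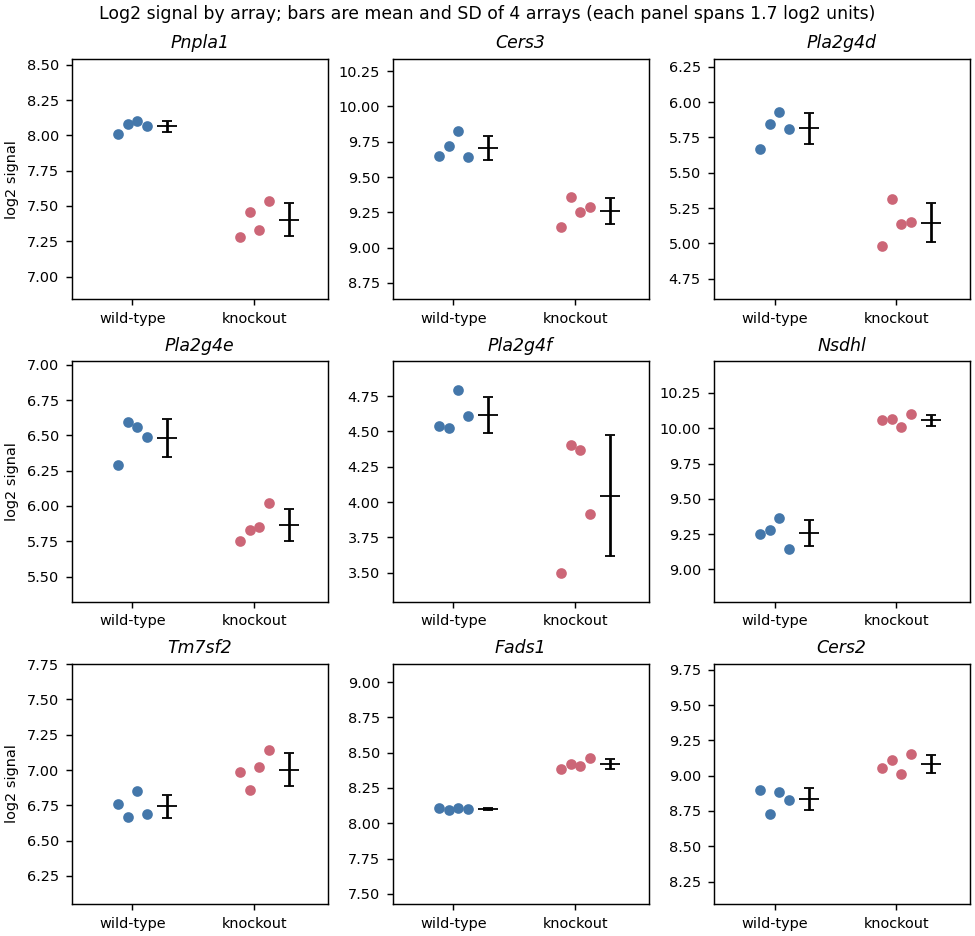
Log2 signal of the 8 called lipid genes and of Pla2g4f on each array, wildtype in blue and knockout in red, with the mean and SD of 4 arrays as black bars; each panel spans the same range of log2 units. Groups do not overlap in any panel, and the knockout arrays of Pla2g4f are spread from 3.49 to 4.40.

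Among the 13 phospholipase A2 genes, 2 fell, none rose and 11 did not pass, with a median of -0.04. The 2 that fell belong to the cytosolic group IV and are next to each other in the genome. Pla2g4d encodes a cytosolic phospholipase A2 known from inflamed epidermis. It read 5.67, 5.84, 5.93 and 5.81 in wildtype and 4.98, 5.32, 5.13 and 5.15 in knockout arrays, with no overlap and a difference of -0.67 ± 0.08 (SE, limma adjusted p = 0.000242). Pla2g4e, whose product transfers acyl chains to make N-acyl phosphatidylethanolamines, read 6.29, 6.60, 6.56 and 6.49 in wildtype and 5.75, 5.83, 5.85 and 6.02 in knockout arrays. Its arrays were separated too, with a difference of -0.62 ± 0.08 (SE, limma adjusted p = 0.000448). On both genes replicate 1 was the lowest array of its group, in wildtype and in knockout.

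The third gene of this cluster, Pla2g4f, did not pass. It read 4.54, 4.52, 4.80 and 4.61 in wildtype and 3.49, 4.40, 4.37 and 3.91 in knockout arrays. The groups did not overlap, but the knockout arrays varied most of all lipid genes, with an SD of 0.43, and the difference was -0.57 with a 95% interval of -0.95 to -0.19 (limma adjusted p = 0.0672). Without knockout replicate 2 or 3 it was called, with an adjusted p down to 0.0325, and its signals were close to or below the array medians. In the RefSeq order of protein-coding genes, Pla2g4e, Pla2g4d and Pla2g4f follow each other directly. Of the genes around them, chosen by position, Ehd4 lies next to Pla2g4e and had a difference of -0.04, and Tmem87a, beyond Pla2g4f, had 0.12 (limma adjusted p = 0.784 and 0.448). The gene between Pla2g4f and Tmem87a was not analysed here. Related genes can share probe targets, and whether that happens among these 3 was not tested. Pla2g4a, the widely expressed arachidonate-releasing member of group IV, is not in this run of neighbours. It was brighter, at 8.77 ± 0.06 in wildtype and 8.88 ± 0.05 in knockout arrays (SD, n = 4 each), and had a difference of 0.10 with a 95% interval of -0.01 to 0.22.

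The remaining phospholipase A2 genes were mostly dim. Pla2g7, the gene of platelet-activating factor acetylhydrolase, read 8.25 and 8.48 in the 2 groups, with a difference of 0.23 ± 0.07 (SE) and groups that overlapped (limma adjusted p = 0.088). The secreted enzyme genes Pla2g10, Pla2g12a and Pla2g3 read 5.15, 6.87 and 4.79 in wildtype arrays, with differences of 0.00, -0.04 and -0.06. Pla2g2a, Pla2g2e, Pla2g5 and Pla2g12b lay below the median of each array, and Pla2g2c around it, and their differences were -0.11 to 0.01.

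Desaturases insert double bonds into fatty acids. Fads1 encodes the delta-5 desaturase of polyunsaturated fatty acids and had the smallest SD within groups of all the lipid genes. It read 8.11, 8.09, 8.11 and 8.10 in wildtype and 8.39, 8.42, 8.41 and 8.47 in knockout arrays. Each knockout array was higher, by 0.32 ± 0.05 on average (SE), a 1.25-fold signal (limma adjusted p = 0.00111). Fads2b, from the same family, had a difference of -0.31, with overlapping groups and a 95% interval of -0.57 to -0.05 (limma adjusted p = 0.147). Scd3, a stearoyl-CoA desaturase gene of sebaceous glands, had -0.21 (limma adjusted p = 0.23) and was called without knockout replicate 2 (adjusted p = 0.0335). A second, dimmer probe set of Scd3 read 3.47 and 3.51 in the 2 groups, with a difference of 0.04, so the 2 probe sets disagreed in sign. The elongases Elovl2 and Elovl3 read 2.69 and 3.10 in wildtype arrays, below the lower quartiles, and had differences of -0.02 and -0.11.

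Fatty acid activation and glycerolipid synthesis were each represented by 1 gene. Acsl5, a long-chain acyl-CoA synthetase gene, had wildtype values of 10.94 to 10.96 and knockout values of 10.94 to 11.02, with a 95% interval for the difference of -0.08 to 0.13. Agpat2, which encodes an acyltransferase that forms phosphatidic acid, read 7.70, 7.69, 7.81 and 7.77 in wildtype and 7.94, 7.90, 7.94 and 7.89 in knockout arrays. All knockout arrays were above all wildtype arrays, but the limma adjusted p of 0.0611 for a difference of 0.17 ± 0.05 (SE) missed the threshold. It passed in 6 of 16 alternatives, among them quantile normalization and centring on array medians. Of 22 listed genes of fatty acid oxidation and lipid droplets, 12 were measured: 3 fell, none rose and 9 did not pass. Acot1 and Acot7, genes of acyl-CoA thioesterases, fell by 0.51 and 0.25, and Plin3, a lipid droplet coat gene, by 0.20, a limma call that was lost whichever single array was left out (adjusted p up to 0.0935).

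**Figure D4:**
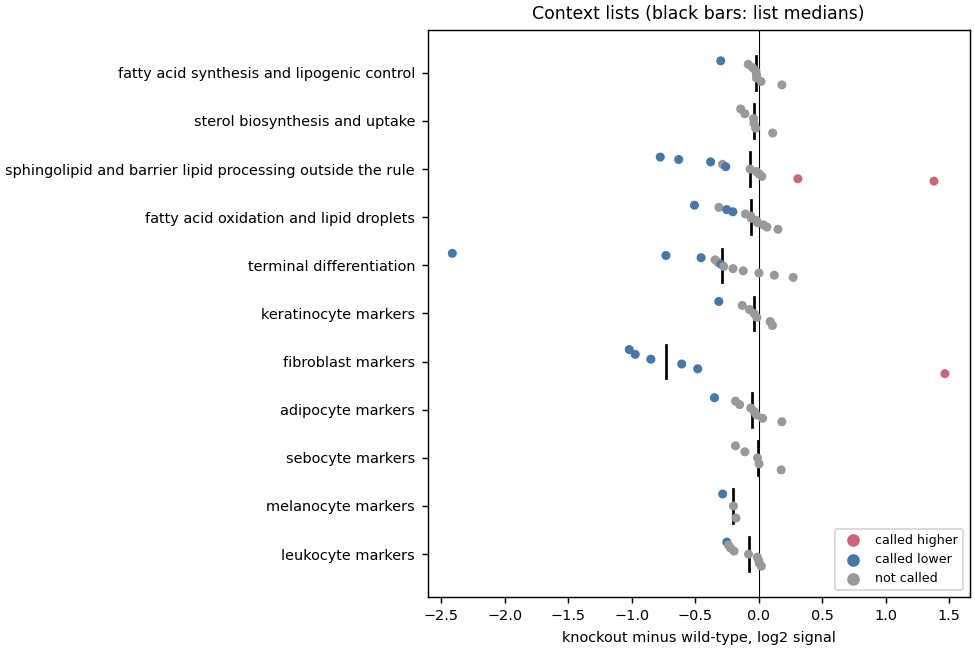
Differences in log2 signal (knockout minus wildtype) of genes in pathway and marker lists, 1 point per gene, with black bars for list medians; Elovl3, among the sebocyte markers, is also 1 of the 49 lipid genes. Fibroblast markers have a median of -0.73 and terminal differentiation genes one of -0.29, and the other medians lie between -0.20 and -0.01.

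No ABCA transporter was called in limma, and 1 of 9, Abca4, had an unadjusted p under 0.05. Abca12 loads glucosylceramide into lamellar granules, and its loss causes harlequin ichthyosis. It read 4.45, 4.56, 4.54 and 4.37 in wildtype and 4.52, 4.36, 4.08 and 4.42 in knockout arrays, below the median of each array. The groups overlapped, and the difference of -0.13 had a 95% interval of -0.33 to 0.06. Of the 9 ABCA genes, Abca7, Abca2 and Abca4 lay above the array medians, at means of 7.17, 5.33 and 4.88, with differences of 0.14, -0.13 and 0.16. The other 5, Abca6, Abca8a, Abca8b, Abca14 and Abca16, lay below them, with differences of -0.13 to 0.08.

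Lipases of the acid lipase family that are known from differentiating epidermis, Lipk and Lipn, did not pass. Lipk read 6.35, 6.80, 6.66 and 6.51 in wildtype and 6.02, 6.46, 6.30 and 6.02 in knockout arrays. Knockout replicate 2 lay above wildtype replicate 1, and the difference was -0.38 ± 0.12 (SE, limma adjusted p = 0.0722). Without wildtype replicate 1 or knockout replicate 2, Lipk was called lower, with an adjusted p down to 0.0308. Lipn, its neighbour in the RefSeq order, read 3.69, 3.60, 3.72 and 3.77 in wildtype and 3.38, 3.38, 3.19 and 3.92 in knockout arrays, so that knockout replicate 4 was higher than every wildtype array. The adjusted p of Lipn was 0.354 in limma, and 0.00828 without knockout replicate 4. With a mean of 3.58, Lipn lay below the median of each array, so its signal could not be told from background. Lipf, the gastric lipase gene on the other side of Lipk, had a difference of -0.05 and Lipi one of -0.19, and both lay below the array medians.

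Fatty acid binding proteins carry fatty acids in the cytosol, and the 4 measured genes were not the epidermal member of the family. Fabp2, Fabp6 and Fabp7, genes of the intestinal, ileal and brain proteins, lay below the median of each array, and Fabp12 around it. Fabp7 read 4.11, 4.24, 4.20 and 4.25 in wildtype and 4.01, 4.09, 3.97 and 3.93 in knockout arrays, with no overlap and a difference of -0.20 (limma adjusted p = 0.0563), and it was called without wildtype replicate 1 (adjusted p = 0.0464). Differences of the other 3 were -0.12 to -0.04. Sphingomyelinases release ceramide from sphingomyelin: Smpd2, the gene of a neutral enzyme, read 7.73 in both groups with a 95% interval for the difference of -0.13 to 0.13, and Smpd5 had a difference of 0.12 at a mean of 4.70.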

How the data were processed

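RNA of 8 keratinocyte cultures, 4 per genotype, was extracted with Trizol and Qiagen columns and biotin-labelled, per the labels' protocols. The authors deposited 1 log2 signal per probe set and array for the 11373 probe sets used here. The log2 scale was inferred from the range of 1.57 to 13.9. The summarisation, normalization and genome build were not given in the sources used here. The platform annotation gave 1 symbol for 9374 probe sets, several for 479 and none for 1520. The brightest probe set with 1 symbol represented each of 9294 genes. A further 2 probe sets, which name a lipid gene beside another gene, were left out.

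Groups were compared with limma 3.58.1 (lmFit, eBayes, no covariate) in R 4.3.3, adjusted by Benjamini-Hochberg over all genes at 0.05. The functions were also tested on simulated data. P-values measure the spread between cultures that the labels call biological replicates. All lipid genes are named, those called or tied to the barrier with values per array, and up to 4 called genes of each pathway list. Members and lists were chosen with earlier results of these data known. Alternatives were quantile normalization, median centring, filters on the lowest 25% of genes or a mean log2 signal under 5, the mean of all probe sets, array weights, a trended and robust prior, the replicate number as a block, and leaving out each array. RefSeq tables of GRCm38.p6 matched all 49 genes by Entrez identifier and gave gene order and promoters, searched in Python 3.11.15.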

Additional observations from a re-analysis of the deposited data

Results flagged for a closer look

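In 7 cases 1 array stood apart from the other 3 of its genotype by Dixon's test, among 146 groups of 4 arrays tested, and chance flags about 1 in 20 (5%), against 4.79% here. Wildtype replicate 1 was low for Elovl2 (2.56, others 2.73 to 2.75), Pnpla7 (5.46, others 5.71 to 5.72) and Alox12b (5.03, others 5.23 to 5.26). Knockout replicate 1 was low for Fabp6 (3.67, others 4.10 to 4.17), and knockout replicate 3 was high for Mid1ip1 (10.49, others 10.37 to 10.38). Lum was low on wildtype replicate 3 (4.93, others 5.13 to 5.17) and Twist2 on wildtype replicate 2 (8.44, others 8.53 for each).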

How the results depend on the processing

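The call of every lipid gene that fell (Pnpla1, Cers3, Pla2g4d and Pla2g4e), and of Nsdhl and Fads1, held in all 16 alternatives, and no called lipid gene changed sign. Calls of Cers2 and Tm7sf2 were lost in 5 and 9 alternatives. Of the lipid genes, 10 were called with the lowest 25% of genes left out and 12 with only genes of a log2 signal of at least 5 kept or with the trended prior. Those filters also left fewer lipid genes to test, 39 and 23. The share of all genes called rose too, so each share of lipid genes is given against it. It was 25.6% against 13.6% without the lowest 25% of genes, and 52.2% against 23.9% with a log2 signal of at least 5. With the trended prior it was 24.5% against 12.2%. Each of these shares of lipid genes counts Nsdhl and Tm7sf2, which were picked as called genes, so it is a description. Leaving out 1 array at a time, 2 to 4 lipid genes rose and 4 to 7 fell, and 598 to 687 of all genes were called in place of 827. With the replicate number as a block, 2 lipid genes rose in place of 4 and 6 fell, and 659 genes were called. The cause was not tested. Over all genes, same-numbered arrays did not deviate together (correlations of -0.049 to 0.085), so the numbers were not taken as pairs. On some genes, among them Pla2g4d, Pla2g4e and Degs2, replicate 1 was the lowest array of both groups. On others, such as Nsdhl, it was not. Over all alternatives except median centring, the share of higher calls among all genes was 46.8% to 53.8%, and it was 60.6% with centring. Signal near background limits what can be said of the 20 lipid genes below the array medians.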
